A study of Triticum aestivum with 2 samples.

Results

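The group 2 epidermis cluster of bread wheat consists of 7 gene IDs that lie next to each other in the numbering of chromosomes 2A, 2B and 2D: TraesCS2A03G0309100LC and TraesCS2A03G0309200 on 2A, TraesCS2B03G0426600LC, TraesCS2B03G0426800 and TraesCS2B03G0426900 on 2B, and TraesCS2D03G0324400 and TraesCS2D03G0324500 on 2D. They were chosen from the 18 epidermis genes of the marker table of the study, which lists cluster genes of its single-cell atlas that showed the layer in sections of these same chips, so the outer position of the 7 genes is what selected them and is given below as a description. Both chips together held MIDs of 100979 nuclear gene IDs. All 7 members were found on both chips, and the suffix LC marks the 2 members annotated with low confidence. No other gene ID with a count lay between members of the same chromosome.

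The root epidermis is the outermost cell layer of the root proper, in contact with the soil, and it gives rise to the root hairs that take up water and nutrients. Beneath it follow the cortex, the endodermis and the stele, and at the tip the root cap covers the epidermis from outside. Bread wheat is an allohexaploid with an A, a B and a D subgenome, so that most genes are present as homoeologous copies whose transcripts can be counted apart only as far as their sequences differ. The molecular function of the 7 genes is not annotated in the files or tables used here, and no sequence of them was at hand, so they are described by copy.

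In Stereo-seq a thin section lies on a surface of barcoded spots that capture polyadenylated transcripts, and each captured transcript is counted by a molecular identifier (MID) at its position. Cross-sections of 10 μm from roots of the wheat ecotype Chinese spring, of plants germinated on plates and moved to soil in the same way for both chips, had been laid on 2 chips, which hold the root cap region and the distal root region. With 1 library per region there were no replicates, and since the sections of 1 chip share a library they were not taken as replicates either, so that no test could be made and no p-value is given. Limits in brackets are exact 95% Poisson or binomial limits and cover counting error only. A spot is far smaller than a cell, and spots were not assigned to cells.

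The root cap region chip held 28281662 MIDs and the distal root region chip 77515877. Outlined by hand were 10 sections on the former, with 85592 to 642862 nuclear MIDs each, and 4 on the latter, with 1480191 to 2240703 each. CPM stands for MIDs per 1000000 nuclear MIDs of the same chip, section or zone. The outlines took in 10.5% and 9.53% of the nuclear MIDs, and the others lay outside on the chip surface. Section numbers here follow the place on the chip. Root cap markers of the study (19 genes) stood at 4484 and 3210 CPM in sections 5 and 10 of the root cap region chip, at 11.3 to 68.2 CPM in its other 8 sections and at 0 in all 4 distal sections. Xylem markers (4 genes) stood at 120 CPM in distal section 1 and at 17.4 to 23.9 CPM in distal sections 2 to 4.

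On the distal root region chip the 7 genes drew a thin ring along the outline of sections 2, 3 and 4 around a sparse interior. In the outermost zone, above 0.85 of the way from the centroid to the outline, lay 5457 of their 7242 MIDs within sections, or 75.4%, where 27.7% of all nuclear MIDs lay. The cortex zone, from 0.50 to 0.85, held 18.8% of the MIDs of the cluster, the endodermis and pericycle zone, from 0.37 to 0.50, held 2.67%, and the central zone held 3.15%. Going inward, the density was 4473, 656, 388 and 378 MIDs per 1000000 spots in these 4 zones, while the density of all genes was nearly flat, with an outermost density 1.05 times that of the central zone.

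**Figure D1:**
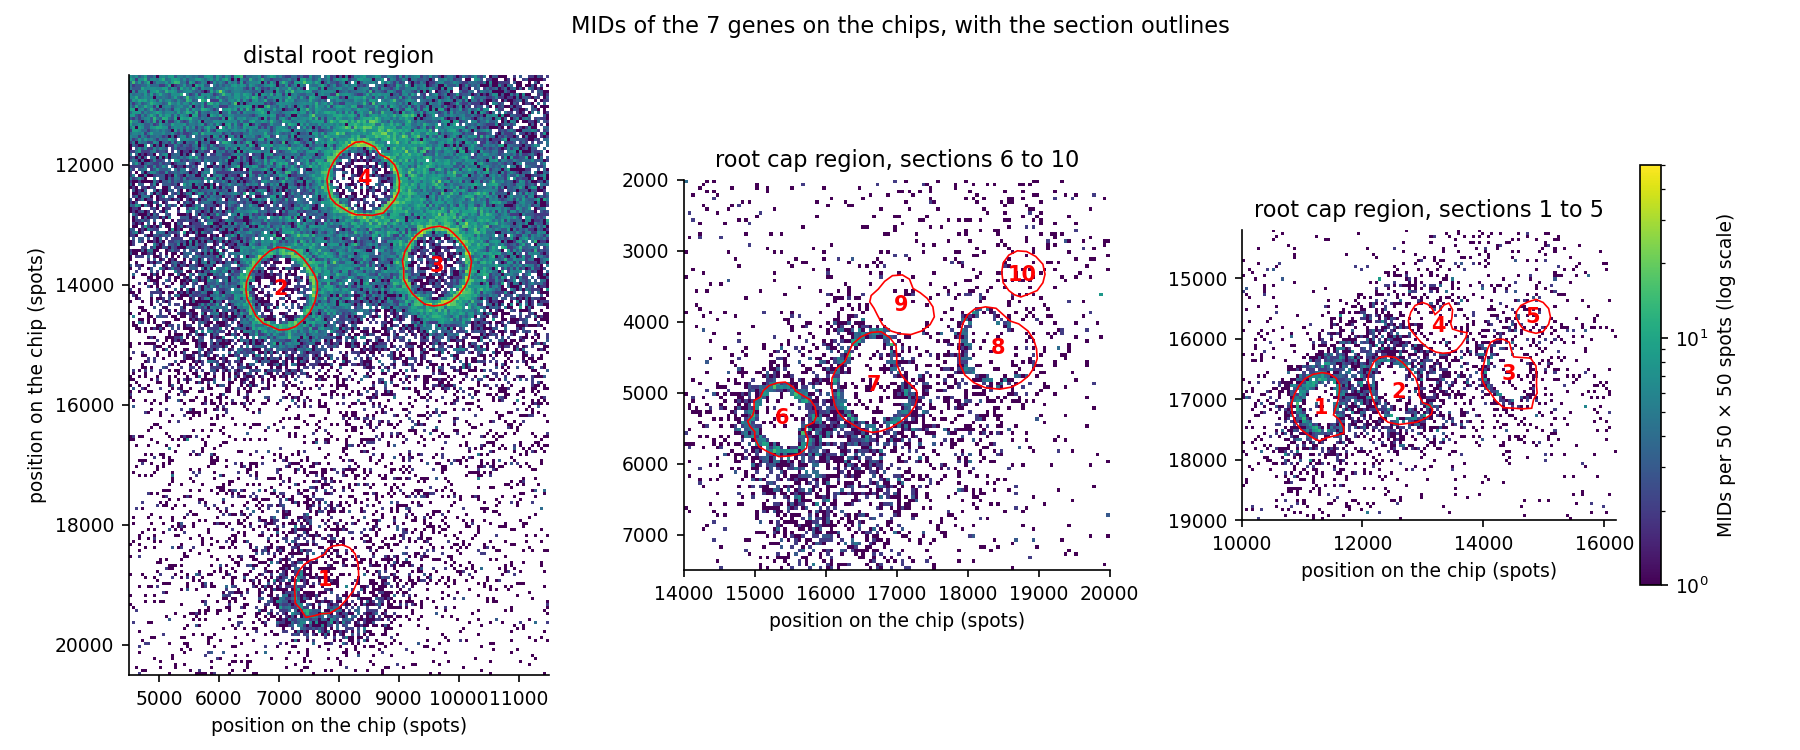
MIDs of the 7 genes summed per 50 × 50 spots (colour, log scale) on the distal root region chip (left) and around sections 6 to 10 (middle) and 1 to 5 (right) of the root cap region chip, both axes giving the position on the chip in spots. Red lines are the hand-drawn section outlines with their numbers, and white bins hold no MID of the 7 genes. The rings of distal sections 2 to 4 stand inside a broad field of MIDs outside the tissue, and sections 5 and 10 of the root cap region chip are almost empty.

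Every copy kept the same layer. The enrichment in the outermost zone, as the log2 ratio of observed MIDs to those expected from all nuclear MIDs of each section, was 1.42 for the 7 genes pooled (limits 1.38 to 1.46), where 1.83 is the value that all MIDs in the zone would give. TraesCS2D03G0324500, the copy with the most MIDs, had 2609 MIDs within the sections and an enrichment of 1.39 (1.32 to 1.45). TraesCS2D03G0324400 next to it had 1901 MIDs and 1.40 (1.32 to 1.47). On 2B, TraesCS2B03G0426900 had 1252 MIDs and 1.41 (1.32 to 1.5), TraesCS2B03G0426800 had 448 MIDs and 1.53 (1.37 to 1.68), and TraesCS2B03G0426600LC had 235 MIDs and 1.5 (1.29 to 1.71). On 2A, TraesCS2A03G0309200 had 480 MIDs and 1.52 (1.38 to 1.67), and TraesCS2A03G0309100LC had 317 MIDs and 1.51 (1.33 to 1.69). The limits of all 7 members overlap. All 7 members were enriched by at least 1 on the log2 scale, as were 2.13% of the 10588 gene IDs with at least 100 MIDs in these sections, and all 7 were above 0 in each of the 4 sections, as were 11.3% of those gene IDs. Since the members were picked for this layer, nothing is read from these counts.

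The density of each member was highest in the last twentieth of the radius and was less than 50% of that height inward of a relative radius of 0.90. The A copies reached 731 MIDs per 1000000 spots there, the B copies 1612 and the D copies 3686. Inward of a relative radius of 0.50 the density was 29.1 per 1000000 spots for the A copies, 98.1 for the B copies and 255 for the D copies, so the outer edge stood 25.1-fold, 16.4-fold and 14.4-fold above the interior. The mean relative radius was 0.889 for the A copies, 0.870 for the B copies and 0.861 for the D copies, against 0.668 for all genes.

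**Figure D2:**
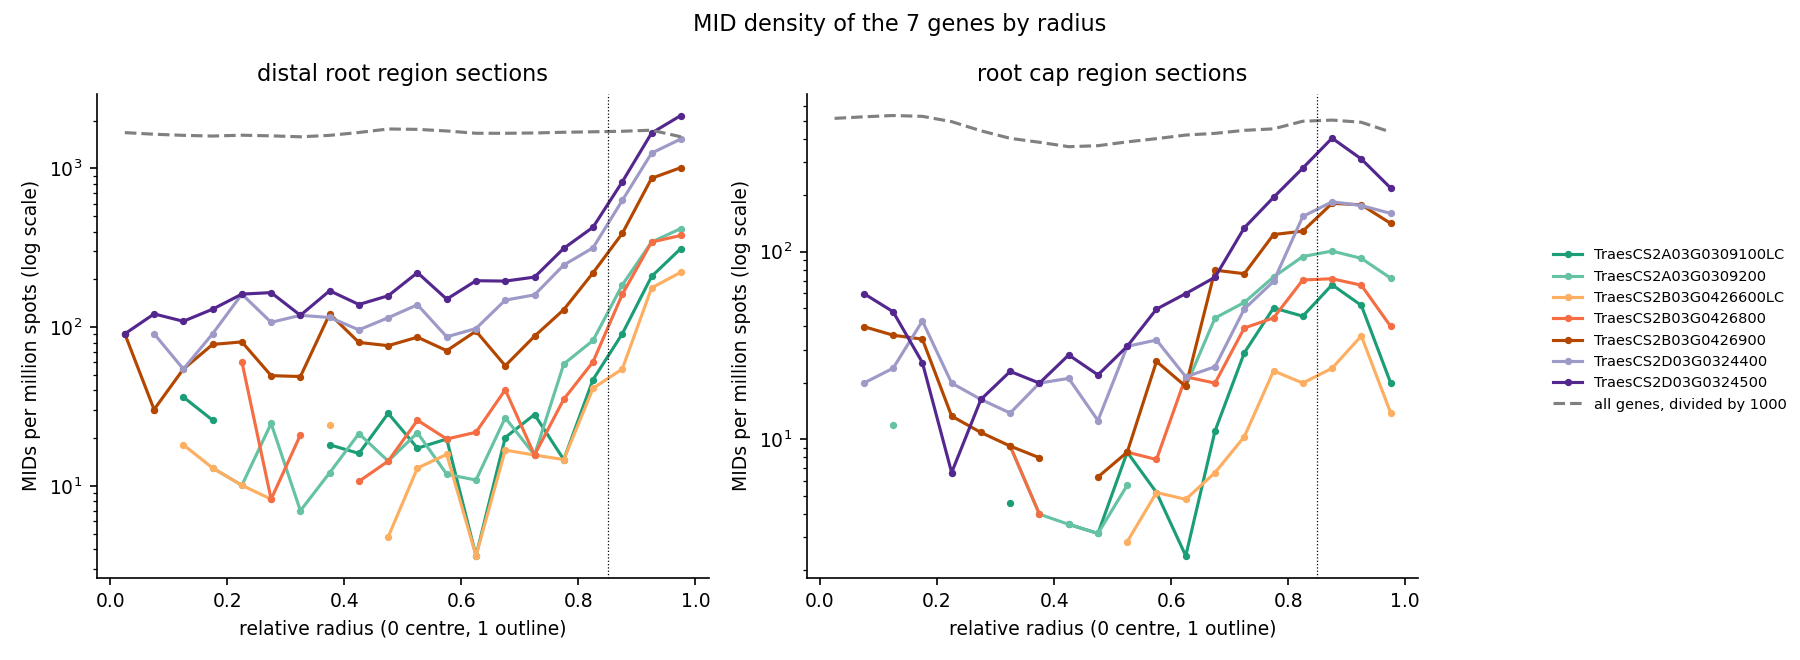
MIDs of each of the 7 genes per 1000000 spots (log scale) in 20 bins of relative radius from the centroid (0) to the outline (1), in the 4 distal sections (left) and the 10 sections of the root cap region chip (right). The dashed line is all genes divided by 1000, the dotted line marks 0.85, and bins with no MID are left out. All 7 lines climb at the edge of the distal sections, where all genes stay flat. On the root cap region chip the climb starts further inside.

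The subgenome make-up was not the same at all depths. In distal sections 2 to 4 the D copies made up 60.1% of the MIDs of the cluster in the outermost zone (58.7 to 61.4%) and 65.4% inside it (63.0 to 67.7%), and their share of the central zone was 70.9% (64.0 to 77.2%). The A copies made up 12.0% in the outermost zone (11.1 to 12.9%) and 8.93% inside it (7.58 to 10.4%). The limits of the 2 places do not overlap for the A or the D copies, while those of the B copies do, at 27.9% (26.7 to 29.2%) and 25.7% (23.5 to 27.9%). In distal section 1 the share of the D copies was 79.1% in the outermost zone (73.5 to 84.0%) and 74.9% inside it (67.9 to 81.0%), and these limits overlap. Pooled over the 10 root cap region sections, the D share was instead lower in the cortex zone than outermost. It was 55.7% outermost (53.2 to 58.2%) and 50.2% in the cortex zone (47.3 to 53.1%), without overlap. The A copies made up 15.4% and 18.7% there, with overlapping limits. Further in, the D share was 77.5% on 40 MIDs in the endodermis and pericycle zone and 63.5% on 63 MIDs in the central zone. These pooled zones mix sections of unlike D share. Section 1 of that chip had a D share of 46.6% and 33.2% of its cluster MIDs outermost. Section 7 had a D share of 63.9% and 67.7% outermost. Whether the D share falls inward within single sections of that chip was not tested.

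Pooled over the 10 root cap region sections, the same layer was enriched less. The 7 genes had 2893 MIDs there, 55.3% of them outermost and 41.1% in the cortex zone, and the enrichment was 0.74 pooled (0.67 to 0.81) and between 0.53 for TraesCS2B03G0426800 and 0.90 for TraesCS2D03G0324400. The density was 863 MIDs per 1000000 spots outermost, 376 in the cortex zone and 68.8 centrally, so the fold between the outermost and the central zone was 12.6, beside 11.8 in the distal sections. The mean relative radius of the members was 0.828 to 0.848 against 0.675 for all genes. By section, where the cluster had over 100 MIDs, the pooled enrichment was -0.42 in section 1, 0.66 in section 2, 1.36 in section 3, 1.12 in section 6, 1.31 in section 7 and 1.19 in section 8. In section 1 of that chip 33.2% of the MIDs of the cluster lay in the outermost zone, which held 44.5% of all MIDs of the section. The negative value there was not particular to the cluster. In the same section the other 11 epidermis genes of the marker table were at -0.23 (-0.43 to -0.05). The cortex markers were at -0.40 (-0.74 to -0.07), so the zone did not part the 2 lists there. That section held 687 of the 2893 MIDs. The distal values were 1.17 in section 1 and 1.40 to 1.48 in sections 2 to 4. The largest value the ratio can reach is lower where the zone holds more of all MIDs, so it does not rank sections by sharpness. Section 6 had 70.6% of the cluster outermost and section 3 had 49.5%, where the zone held 32.5% and 19.3% of all MIDs. Of the sections with fewer MIDs, section 5 had an enrichment of 1.22 on 29 MIDs (0.44 to 1.90), and the limits held 0 in sections 4, 9 and 10. The other 11 epidermis genes of the marker table had an outermost enrichment of 1.43 (1.39 to 1.48) in the distal sections and 0.85 (0.78 to 0.92) on the root cap region chip. The cortex markers (14 genes) had values of -1.58 and -0.80, and the xylem markers -2.24 and -1.28, in the same order.

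Off the tissue of the distal root region chip the 7 genes stayed dense. Of their MIDs, 93.2% lay outside the outlines on the distal root region chip, where 90.5% of all nuclear MIDs did. Just outside the distal outlines, from 0 to 50 spots, they had 4455 MIDs per 1000000 spots, 99.6% of their density in the outermost zone, and from 200 to 300 spots 2095, or 46.8% of it. For all genes the corresponding values were 76.8% and 71.2%. The interior of the sections thus held fewer MIDs of the cluster per spot than the surface around them: the density from 200 to 300 spots outside was 5.54-fold that of the central zone, against 0.744-fold for all genes. The A, B and D copies had 101%, 97.6% and 100% of their outermost density from 0 to 50 spots and 50.5%, 46.7% and 46.2% from 200 to 300 spots. On the root cap region chip the cluster was less dense off the tissue. There 84.7% of its MIDs lay outside the outlines, against 89.5% of all nuclear MIDs. Its density was 52.5% of the outermost value from 0 to 50 spots and 27.9% from 200 to 300 spots. For all genes these values were 91.7% and 60.2%. The density from 200 to 300 spots was still 3.50-fold that of the central zone, against 0.620-fold for all genes. What part of the MIDs within the outlines comes from the surrounding field was not tested.

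Within the distal sections the level of the cluster was lowest in section 1. The 7 genes together stood at 288 CPM in section 1, at 1162 in section 2, at 1149 in section 3 and at 1152 in section 4. Sections 2 to 4 have overlapping limits, and section 1 lies far under them. TraesCS2D03G0324500 stood at 112, 420, 403 and 421 CPM in sections 1 to 4, and TraesCS2D03G0324400 at 111, 290, 285 and 308 CPM. TraesCS2B03G0426900 stood at 33.8, 226, 210 and 175 CPM, and TraesCS2B03G0426800 at 8.78, 73.4, 76.3 and 70.7 CPM. TraesCS2A03G0309200 stood at 4.73, 80.7, 76.3 and 84.0 CPM, so that it nearly vanished from section 1, with 7 MIDs. The 2 LC members stood at 14.2, 38.7, 61.1 and 47.8 CPM (TraesCS2A03G0309100LC) and at 4.05, 33.1, 37.9 and 45.2 CPM (TraesCS2B03G0426600LC).

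Section 1 against sections 2 to 4 gave a log2 ratio of -2.00 for the pooled cluster (-2.14 to -1.86). Among the members it ranged from -1.41 for TraesCS2D03G0324400 (-1.65 to -1.18) to -4.08 for TraesCS2A03G0309200 (-5.40 to -3.03), and these limits do not overlap. All 7 members were at -1 or lower, as were 26.0% of the 10588 gene IDs with at least 100 MIDs, whose median was -0.07. The other 11 epidermis genes stood at 357 CPM in section 1 and at 830 to 1047 in sections 2 to 4, and section 1 is the section with the most xylem marker MIDs. The part of either in the low values of the cluster was not tested, and fewer epidermal cells and less RNA per cell cannot be told apart in these sums. Within section 1 the outermost enrichments ran from 0.79 (TraesCS2B03G0426900) to 1.72 (TraesCS2B03G0426600LC, on 6 MIDs). The limits held 0 for TraesCS2A03G0309200, at 1.17 on 7 MIDs (-0.70 to 2.53), and for TraesCS2B03G0426800, at 0.86 on 13 MIDs (-0.58 to 1.99).

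**Figure D3:**
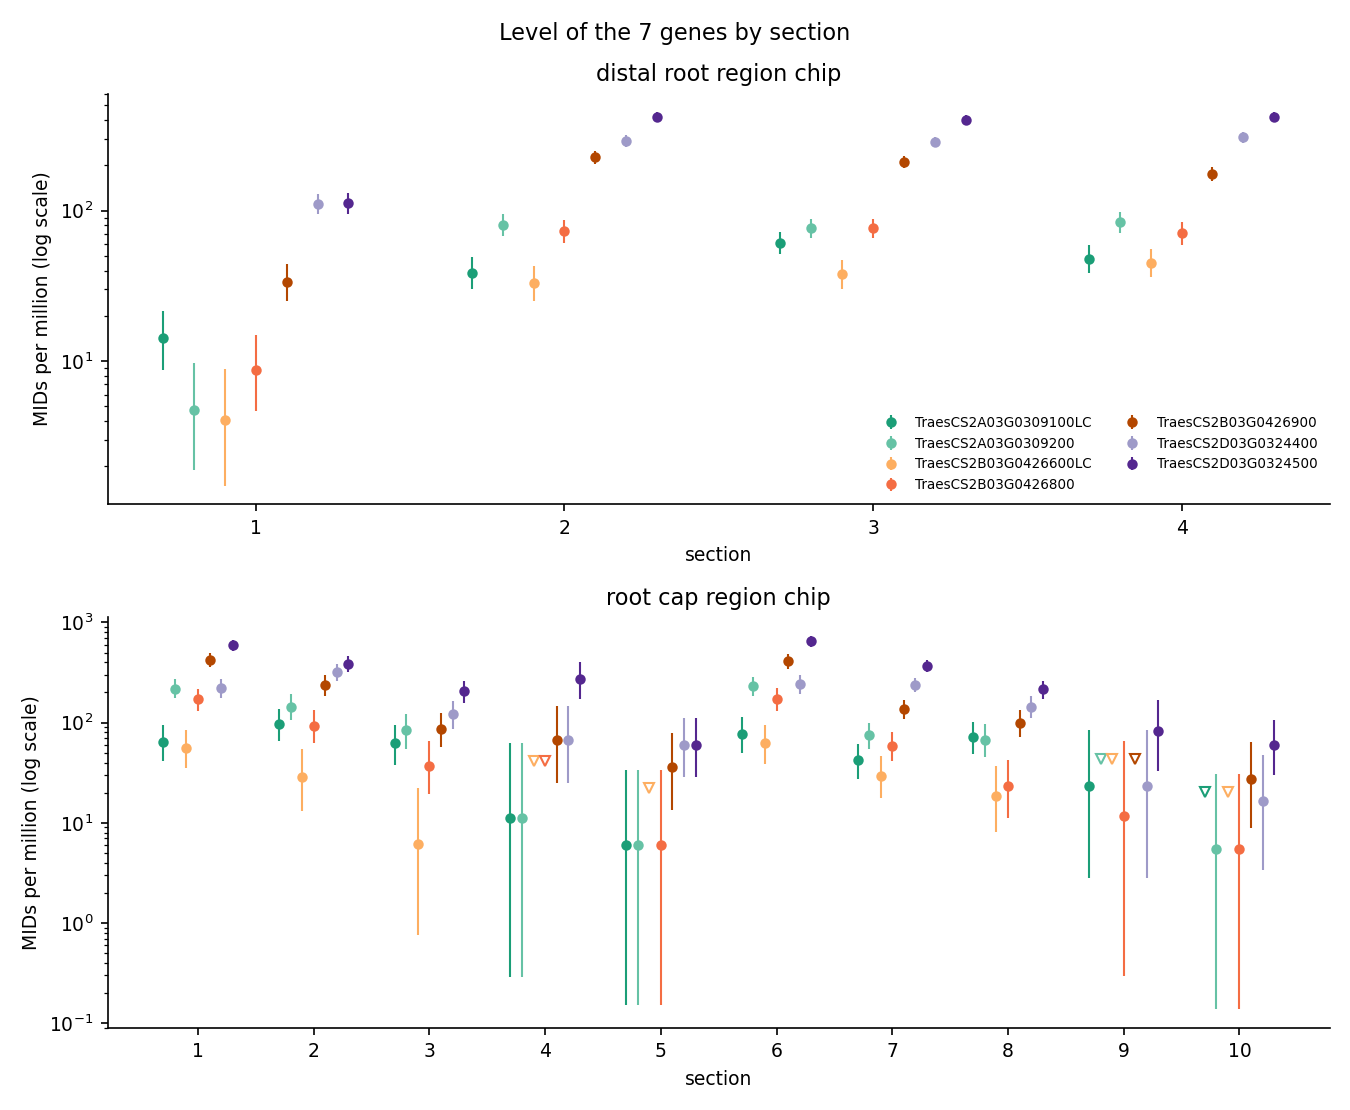
MIDs per 1000000 nuclear MIDs of the section (log scale) for each of the 7 genes in the 4 distal sections (top) and the 10 sections of the root cap region chip (bottom), with exact 95% Poisson limits. Open triangles mark the upper limit where a gene had no MID. Distal section 1 lies under the other 3 for every gene, and sections 4, 5, 9 and 10 of the root cap region chip hold few MIDs of any copy.

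Between sections of the root cap region chip the level of the cluster spanned more than a factor of 10. Pooled, it stood at 1748 and 1844 CPM in sections 1 and 6, at 1302 and 947 in sections 2 and 7, at 602 and 640 in sections 3 and 8, at 430 and 140 in sections 4 and 9, and at 175 and 115 in sections 5 and 10. The limits of sections 1 and 6 overlap, as do those of 3 and 8 and those of 5 and 10. Sections 5 and 10, which carry the root cap markers, held 50 MIDs of the cluster, or 143 CPM against 1089 in the other 8, a log2 ratio of -2.93 (-3.36 to -2.52). All 7 members were at -1 or lower in this contrast, as were 33.8% of the 4207 gene IDs with at least 100 MIDs in the sections, with TraesCS2B03G0426600LC at 0 MIDs set to a floor of 3. The other 11 epidermis genes stood at 646 and 546 CPM there. Sections 4 and 9, sparse in MIDs, carried 249 and 234 CPM of the xylem markers, against 5.46 to 133 in the other 8.

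TraesCS2D03G0324500 stood at 593 and 646 CPM in sections 1 and 6, at 385 and 369 in sections 2 and 7, at 205 and 214 in sections 3 and 8, and at 60.3 and 60.0 in sections 5 and 10. TraesCS2D03G0324400 ran flatter, at 221 and 243, then 317 and 236, then 121 and 144, and then 60.3 and 16.4 CPM in the same pairs of sections. TraesCS2B03G0426900 ran steeper, at 425 and 412, then 237 and 137, then 86.8 and 100.1, and then 36.2 and 27.3 CPM. So the member of the 2D pair that was second by MIDs was lower in sections 1 and 6 than TraesCS2B03G0426900, and its limits do not overlap with those of that gene in either. This order rests on all MIDs. Of those assigned to exons, TraesCS2B03G0426900 had 91 in section 1 and 56 in section 6. TraesCS2D03G0324400, with every MID exonic, had 87 and 82. TraesCS2A03G0309200 stood at 219 and 231 CPM in sections 1 and 6 and TraesCS2B03G0426800 at 170 and 172, and each had at most 1 MID in sections 5 and 10.

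Over the whole chips the copies stood in the same order of MIDs. For TraesCS2D03G0324500 there were 35585 MIDs on the distal root region chip and 7293 on the root cap region chip, and TraesCS2D03G0324400 had 27798 and 4221. TraesCS2B03G0426900 had 17053 and 3949, TraesCS2A03G0309200 had 8652 and 1332, and TraesCS2B03G0426800 had 8393 and 1019. The LC members had 5208 and 765 (TraesCS2A03G0309100LC) and 4233 and 350 (TraesCS2B03G0426600LC). These are counts of molecules and are not divided by gene length, which was not at hand.

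As a share of all nuclear MIDs the cluster stood at 1379 CPM on the distal root region chip (1371 to 1388) and at 669 CPM on the root cap region chip (660 to 679), a log2 ratio of 1.04 (1.02 to 1.07). Of the 7 members, 5 were at 1 or higher, as were 27.2% of the 41508 gene IDs with at least 100 MIDs, and 0 were at -1 or lower, as were 3.89%. The median of these gene IDs was 0.54. The ratio was 2.14 for TraesCS2B03G0426600LC (1.98 to 2.30), 1.59 for TraesCS2B03G0426800 (1.49 to 1.68), 1.31 for TraesCS2A03G0309100LC (1.2 to 1.42), 1.26 for TraesCS2D03G0324400 (1.22 to 1.31) and 1.24 for TraesCS2A03G0309200 (1.16 to 1.33). It was 0.83 for TraesCS2D03G0324500 (0.80 to 0.87) and 0.66 for TraesCS2B03G0426900 (0.61 to 0.71), whose limits do not overlap with those of their neighbours on the same chromosome.

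Within the sections the pooled levels were closer. The 7 genes stood at 980 CPM on the distal root region chip and at 977 on the root cap region chip, a log2 ratio of 0.0043 (-0.06 to 0.07). On 2D the ratio was 0.49 for TraesCS2D03G0324400 (0.35 to 0.63) and 0.04 for TraesCS2D03G0324500 (-0.07 to 0.14). On 2B it was 0.22 for TraesCS2B03G0426600LC (-0.15 to 0.60), -0.27 for TraesCS2B03G0426800 (-0.51 to -0.03) and -0.15 for TraesCS2B03G0426900 (-0.29 to -0.0017). On 2A it was -0.36 for TraesCS2A03G0309100LC (-0.64 to -0.08) and -0.72 for TraesCS2A03G0309200 (-0.92 to -0.51). The ratios of all gene IDs within the sections were not computed, so nothing is read from the number of members on either side of 0. Without distal section 1, a choice made after seeing the data, the pooled ratio was 0.24 (0.18 to 0.30), and without sections 5 and 10 of the root cap region chip it was -0.15 (-0.21 to -0.09).

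The subgenome shares were close on the whole chips. The A, B and D copies made up 13% (12.8 to 13.2%), 27.8% (27.5 to 28.0%) and 59.3% (59.0 to 59.6%) of the MIDs of the cluster on the distal root region chip. They made up 11.1% (10.6 to 11.5%), 28.1% (27.5 to 28.7%) and 60.8% (60.1 to 61.5%) on the root cap region chip. Over all nuclear genes the D subgenome held 30.3% and 27.3% of the MIDs, and over all genes of the group 2 chromosomes 34.5% and 40.8%, in the same order of chips. Within the sections the direction of the small difference turned. There the D copies made up 62.3% (61.1 to 63.4%) on the distal root region chip and 53.9% (52.1 to 55.8%) on the root cap region chip, and the A copies 11% (10.3 to 11.7%) and 16.6% (15.2 to 18%). Sections 1 and 6 of the root cap region chip held 1309 of its 2893 MIDs of the cluster within outlines. Their D shares were 46.6% and 48.2%, the lowest of that chip. Copies of near-identical sequence can exchange reads, and how reads matching several copies were treated is not stated in the labels or methods, so each share is uncertain to that extent.

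The shares differed more between sections than between chips. In distal sections 2 to 4 the D copies made up 59.8 to 63.3% and the A copies 10.3 to 12.0%. In distal section 1 the D copies made up 77.3% (73.0 to 81.2%) and the A copies 6.56% (4.4 to 9.34%), outside the limits of the other 3 sections in the case of the D copies. On the root cap region chip the share of the D copies was lowest in sections 1 and 6, at 46.6% (42.8 to 50.4%) and 48.2% (44.2 to 52.2%), and stood at 53.9 to 63.9% in sections 2, 3, 7 and 8. In sections 4, 5, 9 and 10, with 12 to 38 MIDs each, it was 66.7 to 78.9% and the limits are wide. Among sections with over 100 MIDs the D copies took the largest share where the cluster as a whole was lowest, in distal section 1. They took the smallest where it was highest, in sections 1 and 6 of the root cap region chip. Between these the share did not follow the level. On the root cap region chip it was 54.1% and 56.0% in sections 3 and 8, at 602 and 640 CPM, 63.9% in section 7, at 947 CPM, and 53.9% in section 2, at 1302 CPM. Distal sections 2 to 4, at 1149 to 1162 CPM, had 59.8 to 63.3%.

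**Figure D4:**
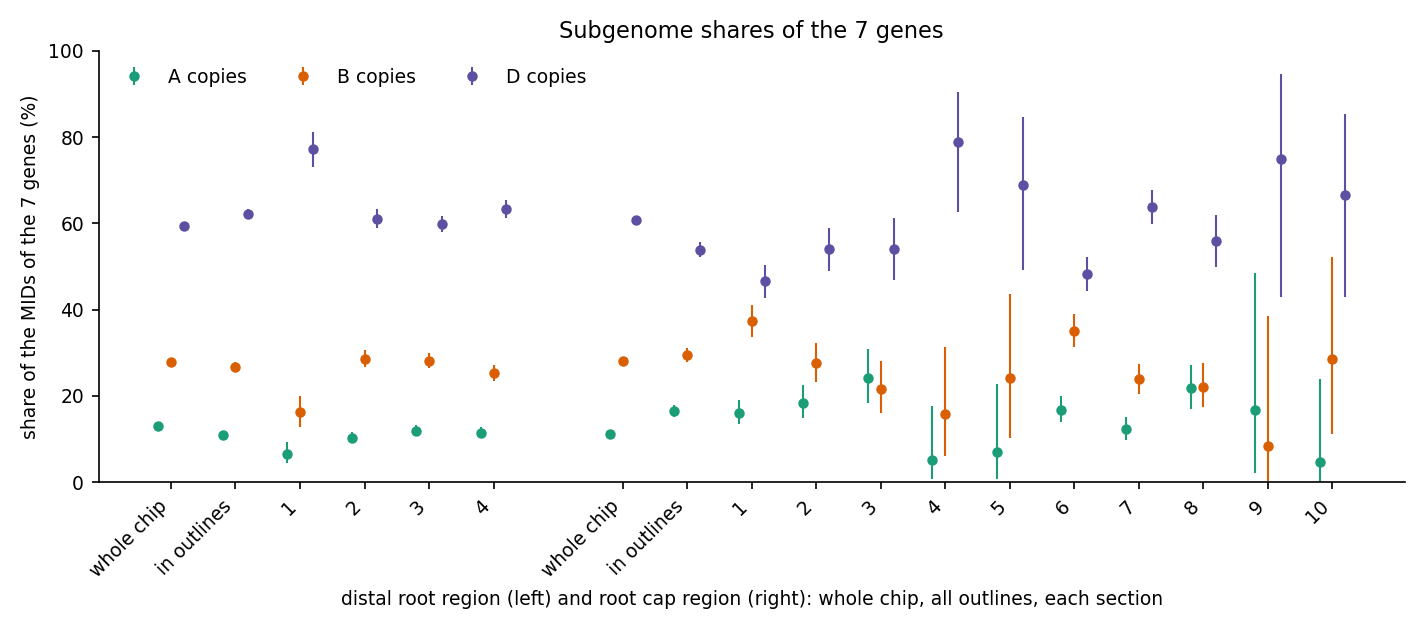
Share of the A, B and D copies among the MIDs of the 7 genes (%) with exact 95% binomial limits, over the whole chip, over all outlines and in each section, for the distal root region chip (left) and the root cap region chip (right). The D copies lie between 46.6% and 78.9% in every section, above the A and the B copies throughout, and highest among the distal sections in section 1 at 77.3%.

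Within the pairs of neighbouring genes the balance also differed. TraesCS2D03G0324400 made up 43.9% of the MIDs of the 2D pair on the distal root region chip (43.5 to 44.2%) and 36.7% on the root cap region chip (35.8 to 37.5%). Within the sections the values were 42.2% (40.7 to 43.6%) and 34.7% (32.4 to 37.2%), and outside them 44.0% and 37.0%, so this difference held in each place. By section it made up 49.7% in distal section 1 (44.2 to 55.2%) and 40.9 to 42.3% in distal sections 2 to 4. On the root cap region chip it made up 27.2% and 27.3% in sections 1 and 6, and 45.2%, 37.1%, 39.1% and 40.3% in sections 2, 3, 7 and 8, so that sections of that chip differed more among themselves than the chips did.

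The other pairs gave less. TraesCS2B03G0426800 made up 33.0% of its pair with TraesCS2B03G0426900 on the distal root region chip and 20.5% on the root cap region chip, but 26.4% (24.3 to 28.5%) and 28.1% (24.9 to 31.4%) within the sections, where the limits overlap and the order turned. TraesCS2A03G0309100LC made up 37.6% and 36.5% of the 2A pair on the whole chips with overlapping limits, and 75% in distal section 1, on 28 MIDs (55.1 to 89.3%), against 32.4 to 44.5% in distal sections 2 to 4.

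**Figure D5:**
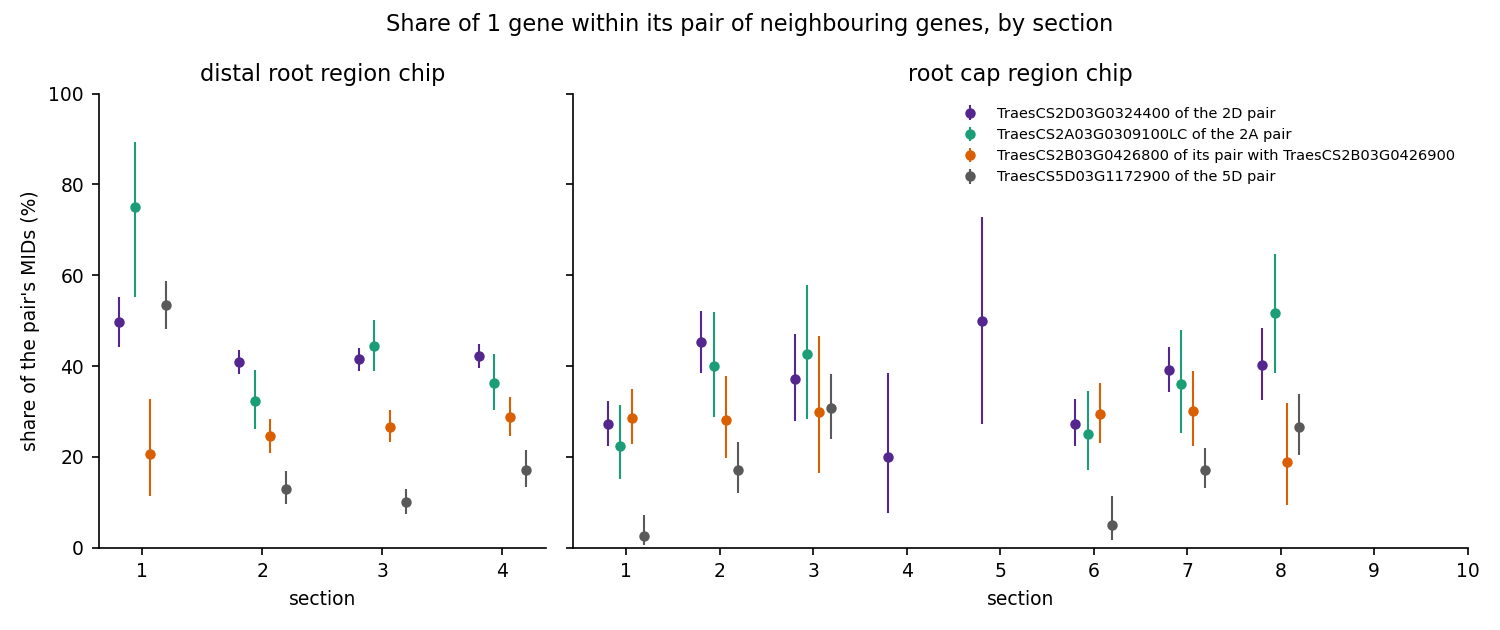
Share of the named gene among the MIDs of its pair (%) with exact 95% binomial limits, by section of the distal root region chip (left) and of the root cap region chip (right), for pairs with at least 20 MIDs in the section. The share of TraesCS2D03G0324400 is lowest, among sections with over 100 MIDs of the pair, in sections 1 and 6 of the root cap region chip, at 27.2% and 27.3%, and TraesCS5D03G1172900, from outside the cluster, stands out in distal section 1 at 53.5%.

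The exonic part separated 1 member from the rest. In TraesCS2B03G0426900 the authors' pipeline assigned 9374 of 17053 MIDs to exons on the distal root region chip, or 55.0% (54.2 to 55.7%), and 2353 of 3949 on the root cap region chip, or 59.6% (58.0 to 61.1%). In the 6 other members every MID on both chips was exonic. The median gene ID with at least 100 MIDs was 97.4% exonic on the distal root region chip and 99.7% on the root cap region chip, and 7.58% and 5.95% of these gene IDs lay under TraesCS2B03G0426900. Of the gene IDs with at least 1000 MIDs, 13.4% and 31.5% were exonic in every MID.

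The exonic and the other MIDs of TraesCS2B03G0426900 lay in the same layer. In the distal sections the enrichment in the outermost zone was 1.38 for 740 exonic MIDs (1.25 to 1.5) and 1.46 for 512 other MIDs (1.31 to 1.60). The exonic share was 57.7% outermost (54.5 to 60.9%), 60.9% in the cortex zone (54.4 to 67.2%) and 58.3 to 68.0% by section, with overlapping limits. Its value of 76.7% in the endodermis and pericycle zone rests on 43 MIDs (61.4 to 88.2%), whose limits do not overlap with those of the outermost zone. On the root cap region chip it was 49.8% within the sections (45.6 to 54.1%) and 61.2% outside them (59.5 to 62.8%), and it ranged from 40.3% in section 6 (32.1 to 48.9%) to 54.5% in section 7 (43.6 to 65.2%) over the sections with at least 50 MIDs of the gene. Counting exonic MIDs alone, the B copies made up 22.2% of the cluster on the distal root region chip and 21.5% on the root cap region chip.

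In 12 sectors of 30 degrees of the outermost zone, the 7 genes ran from 1549 to 4924 CPM in distal section 2, from 2035 to 4069 in section 3, from 1511 to 4083 in section 4 and from 118 to 1462 in section 1. Over the 36 sectors of sections 2 to 4 Pearson's r was 0.57 between the B and the D copies, 0.45 between A and D and 0.41 between A and B. Over the 12 sectors of a single section the values, in the same order, were 0.86, 0.64 and 0.59 in section 1, 0.67, 0.69 and 0.59 in section 2, 0.80, 0.66 and 0.59 in section 3 and 0.42, 0.20 and 0.09 in section 4. Sectors of a section share the library and their depth, and these values are descriptions.

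Within 10 steps of the numbering from a member lay 36 other gene IDs with an MID on either chip, and 12 of them had at least 20 MIDs in the distal sections. Of the 12, 0 were above 1 in the outermost zone, where 2.86% of the 31547 gene IDs with at least 20 MIDs were, and nothing is read from a count of 0 in 12 at that share. Their enrichment ran from -3.00 to 0.69 with a median of -0.17. The highest count among the 36 was 1457 MIDs, on the distal root region chip, and the 7 members made up 92.2% of all MIDs of this window there and 88.1% on the root cap region chip. Just beside the cluster, TraesCS2B03G0426500 and TraesCS2D03G0324300, singled out for their place and not by the rule for naming genes, lay 1 step from a member and had enrichments of 0.35 (-0.28 to 0.91) and -0.71 (-1.84 to 0.22).

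The orthologous group that holds the 5 members without the suffix LC has 5 more wheat genes, on 4A, 5B and 5D. Pooled they had an outermost enrichment of 1.45 (1.39 to 1.51) in the distal sections, and singly 1.34 (TraesCS4A03G0828700), 1.57 (TraesCS5B03G1313200), 1.43 (TraesCS5B03G1313300), 1.58 (TraesCS5D03G1172900) and 1.43 (TraesCS5D03G1173000). TraesCS5B03G1313300 and TraesCS5D03G1173000 are themselves among the 11 other epidermis genes of the marker table, picked for this layer. They had 458 and 1239 MIDs within the distal sections, against 345 to 599 for each of the others. The pooled value therefore rests in large part on that choice and is a description. The most abundant, TraesCS5D03G1173000, was counted 15234 times on the distal root region chip and 4765 times on the root cap region chip, between TraesCS2B03G0426900 and TraesCS2A03G0309200 on the former.

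In distal section 1 the 5 genes went both ways. TraesCS5D03G1172900 stood at 128 CPM there and at 27.1 in sections 2 to 4 together, a log2 ratio of 2.24 (1.93 to 2.56), and TraesCS5B03G1313200 stood at 70.3 and 40.8, a ratio of 0.78 (0.44 to 1.12). The ratios and limits of all 7 members lie below -1. TraesCS5B03G1313300, within the range of the members, had a ratio of -1.69 (-2.25 to -1.18), TraesCS5D03G1173000 of -0.71 (-0.95 to -0.47) and TraesCS4A03G0828700 of -0.41 (-0.74 to -0.09). Of the 5, 1 was at 1 or higher, as were 18.6% of the 10588 gene IDs, and 1 was at -1 or lower, as were 26.0%. Within the 5D pair, TraesCS5D03G1172900 made up 53.5% in distal section 1 (48.2 to 58.8%) and 9.98 to 17.2% in distal sections 2 to 4. In sections 1 and 6 of the root cap region chip, where the cluster was highest, it made up 2.54% and 5.05% of that pair, with 3 and 5 MIDs, against 17.1 to 30.8% in sections 2, 3, 7 and 8.

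Over 10 radial bins in each of the 4 distal sections, the profile of each member in CPM followed that of the other 6 with Pearson's r of 0.954 to 0.992 over 40 points that share the libraries and depth. The members were picked for their outer layer, so high values follow from that choice and nothing is read from them. Outside the cluster, among 2108 gene IDs with at least 500 MIDs in the sections, the most alike to the pooled cluster were TraesCS7D03G0969900LC (0.977), TraesCS6B03G0242600 (0.973), TraesCS7D03G1077100 (0.973), TraesCS5D03G1173000 (0.948) and TraesCS2B03G1540400 (0.934). The median r of those gene IDs was 0.04, and 7 of them reached 0.9. TraesCS6B03G0242600, TraesCS5D03G1173000 and TraesCS2B03G1540400 are epidermis genes of the marker table, and the other two belong to none of the lists used here.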

How the data were processed

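The authors ran the STOmics Analysis Workflow on the reads and deposited raw counts for each gene ID at each spot, of all MIDs and of those assigned to exons, neither binned nor limited to tissue. The sources used here give no genome build, strand or aligner settings for these counts. The members, gene lists and comparisons were chosen with earlier results of these data known, and the marker and orthologous group lists come from the supplementary tables of the study. The rule for named genes was the 7 members, the 5 other genes of their orthologous group, neighbouring gene IDs above an enrichment of 1, and the 5 gene IDs with the most similar profile in the distal sections.

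Outlines were drawn by hand around sections on density maps of every gene. Relative radius means centroid distance divided by that of the outline at the same angle. Organelle MIDs, 0.00193% (root cap region) and 0.00494% (distal root region), were left out of all references. Expected counts follow the share of all nuclear MIDs in a zone of each section. Limits are exact Poisson for counts, Clopper-Pearson for shares and conditional binomial for ratios, at 95%, with a floor of 3 MIDs where a count of 0 enters a ratio over all gene IDs. Steps were checked on simulated counts with known answers. Python 3.11.15, numpy 2.4.6, pandas 2.3.3, scipy 1.17.1 and shapely 2.1.2 were used. The reference table of gene names has 0 matches to these IDs, so no symbol or sequence is given. Alternatives were the zone boundary, the radius measure, exonic MIDs, spots counted once, other references, the outlines and leaving out each section.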

Additional observations from a re-analysis of the deposited data

How the results depend on the processing

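The outermost enrichment of the 7 genes in the distal sections, 1.42, kept its direction under every alternative that gave a value. It was 0.997 with the boundary 10% closer to the centre, 1.89 with it 10% farther, 1.47 by depth from the nearest outline point, 1.42 with exonic MIDs, 1.40 with each spot counted once and 1.45 without the 100 most abundant gene IDs in the reference, and 1.40 to 1.44 when each section was left out in turn. Subtracting the off-tissue density gave no value, because the density from 50 to 300 spots outside, 2338 MIDs per 1000000 spots, exceeds the mean within the outlines, 1646. The enrichment of the 5 other genes of the orthologous group, 1.45, was 1.01 with the closer boundary.

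The share of the D copies on the distal root region chip, 59.3%, was 62.3% within the outlines, 63.9% with exonic MIDs, 58.3% with each spot counted once and 65.0% without the LC gene IDs. On the root cap region chip, 60.8% became 53.9% within the outlines, 66.4% with exonic MIDs and 64.6% without the LC gene IDs, and 61.2% with each spot counted once. The D share was thus lower on the distal root region chip over the whole chip, with exonic MIDs and with spots counted once, and higher within the outlines. Without the LC gene IDs the limits of the distal root region chip (64.7 to 65.3%) and of the root cap region chip (63.9 to 65.3%) overlap.

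The log2 ratio of the chips for the 7 genes, 1.04, was 0.73 with exonic MIDs, 0.62 without the most abundant gene IDs and 0.0043 within the outlines. The last was 0.08 without distal section 1 and sections 5 and 10 of the root cap region chip, an alternative added after seeing the data. The count of neighbouring gene IDs above 1 stayed at 0 with at least 50 MIDs. No paired analysis was possible because each region has 1 library. Members with few MIDs, such as TraesCS2B03G0426600LC, have wide limits in every section, and copies were compared by counted molecules only.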
